A study of Mus musculus with 12 samples.

Results

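The gliogenic transcription factors examined here were 10 genes chosen by symbol: Sox2, Sox9, Nfia, Nfib, Nfix, Zbtb20, Lhx2, Rfx4, Emx2 and Pax6. All 10 were found among the 55471 genes of the count table, and all 10 passed the filter on low counts, as did 19578 genes in total. The libraries came from wild-type primary mouse hippocampal neurons, made from CD1 embryos with the sexes mixed and grown in Neurobasal medium with B27. Cultures received at DIV 7 (day in vitro) either a control gapmer with no known target, or a gapmer against the long noncoding RNA *Neuid*, and RNA was taken at DIV 10. A gapmer is a short antisense oligonucleotide that directs RNase H to its target RNA, and both groups received their gapmer in lipid nanoparticles. There were 6 control and 6 *Neuid* KD (knockdown) libraries. No label says that the libraries of a group came from separate cultures, so p-values measure only the spread between these libraries, which may be technical.

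Astrocytes and neurons of the hippocampus descend from the same radial glia, and a small set of transcription factors holds these progenitors and later sets the glial fate. SOX2 keeps progenitors undifferentiated, while SOX9 starts the change to gliogenesis and induces NFIA, with which it then switches on astrocyte genes. NFIB and NFIX are the sister proteins of NFIA and bind the same palindromic sequence. LHX2, EMX2 and PAX6 are homeodomain proteins that divide the early cortex into territories, the first of them being needed for the hippocampus to form at all. RFX4 acts in the neural tube and in radial glia, and ZBTB20 is needed for CA1 identity and promotes astrocyte production. NFIA, NFIB, NFIX and ZBTB20 are also made by mature hippocampal neurons, while the other 6 were grouped here as known mainly from progenitors and glia.

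Depth ran from 18002585 to 30914714 counted reads in the control group and from 11152556 to 30573480 in the *Neuid* KD group. *Neuid* itself (Gm10419) had a mean of 28.4 ± 2.03 CPM over the control group against 8.05 ± 1.13 CPM with its gapmer (SD, n = 6), where CPM is a gene's count scaled to a common library size of 1000000 reads after TMM normalization. Neuron markers summed to between 6831 and 8066 CPM in control libraries, with all 12 genes of the list detected, so the culture held the labelled cell type, and astrocyte markers were present beside them at 1926 to 2428 CPM. Reads on olfactory, vomeronasal and bitter taste receptor genes, which these cells should not make, summed to 26.7 CPM in the control library with the fewest and 667 CPM in that with the most, and the *Neuid* KD libraries spanned 27.1 to 617 CPM. They reached at least 100 CPM in 4 control and 3 *Neuid* KD libraries. Replicate 1 of the *Neuid* KD group had the fewest reads and stood apart from the other 5 for several of the factors, so results that rest on it are given with and without it.

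Per kilobase of exon, the 10 factors covered a wide range of levels in control cultures. Nfix was highest, at 137.5 ± 8.30 CPM per kb (SD, n = 6), followed by Zbtb20 at 57.5 ± 2.26, Nfib at 48.8 ± 3.02 and Lhx2 at 29.6 ± 1.25 CPM per kb. Nfia followed at 17.2 ± 1.21 CPM per kb, then Sox9 at 12.9 ± 0.617, Sox2 at 9.02 ± 0.828 and Emx2 at 7.79 ± 0.693 CPM per kb. Rfx4, at 3.03 ± 0.269, and Pax6, at 0.889 ± 0.122 CPM per kb, were lowest. Of the 9 pairs of neighbours in this order, only Sox2 and Emx2 had ranges that overlapped over the control libraries. The exon length is the union over all annotated transcripts, so a gene with many long isoforms, such as Zbtb20 with 21 transcripts and 30730 nt, can be placed lower than its main isoform would be.

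With *Neuid* KD, 6 of the 10 factors were upregulated and none was downregulated (0 of 10 lower at an adjusted p under 0.05 from edgeR, 0 at an unadjusted p under 0.05 and 0 with DESeq2). The largest increase was that of Sox2, and Emx2, Rfx4, Sox9, Nfia and Pax6 followed. Nfib, Nfix, Zbtb20 and Lhx2 did not pass the test. The test was edgeR's quasi-likelihood test over all 19578 genes with Benjamini-Hochberg adjustment, and a gene passed at an adjusted p under 0.05. The background was 6.31% of all tested genes called higher and 2.42% called lower (1235 and 473 genes; 1049 and 1259 with upper-quartile scaling). With the further condition of a log2 fold change above 0.5, 3 factors passed (Sox2, Emx2 and Rfx4), against 2.44% of tested genes. The median log2 fold change of the 10 was 0.38, and that of all tested genes was -0.03. Libraries did not overlap for 4 of the factors (Sox2, Sox9, Emx2 and Rfx4), each higher in every *Neuid* KD library, Rfx4 by less than 1 read, and 4.13% of all tested genes were separated in that direction. Of the 6 factors grouped with progenitors and glia 5 rose, with a median log2 fold change of 0.51, and of the 4 also made by neurons 1 rose, with a median of 0.03. This split was drawn from textbook knowledge, but with earlier results of these data known, and was not tested. Lhx2, placed with progenitors and glia, did not rise and was at 29.6 CPM per kb in control libraries, above Nfia at 17.2. In the 7 libraries with at least 100 CPM on receptor genes 5 factors were called higher, as in the 5 libraries under it, Pax6 being the one lost in both. Of all tested genes, 2.75% and 6.28% were called higher in these fits, respectively.

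**Figure D1:**
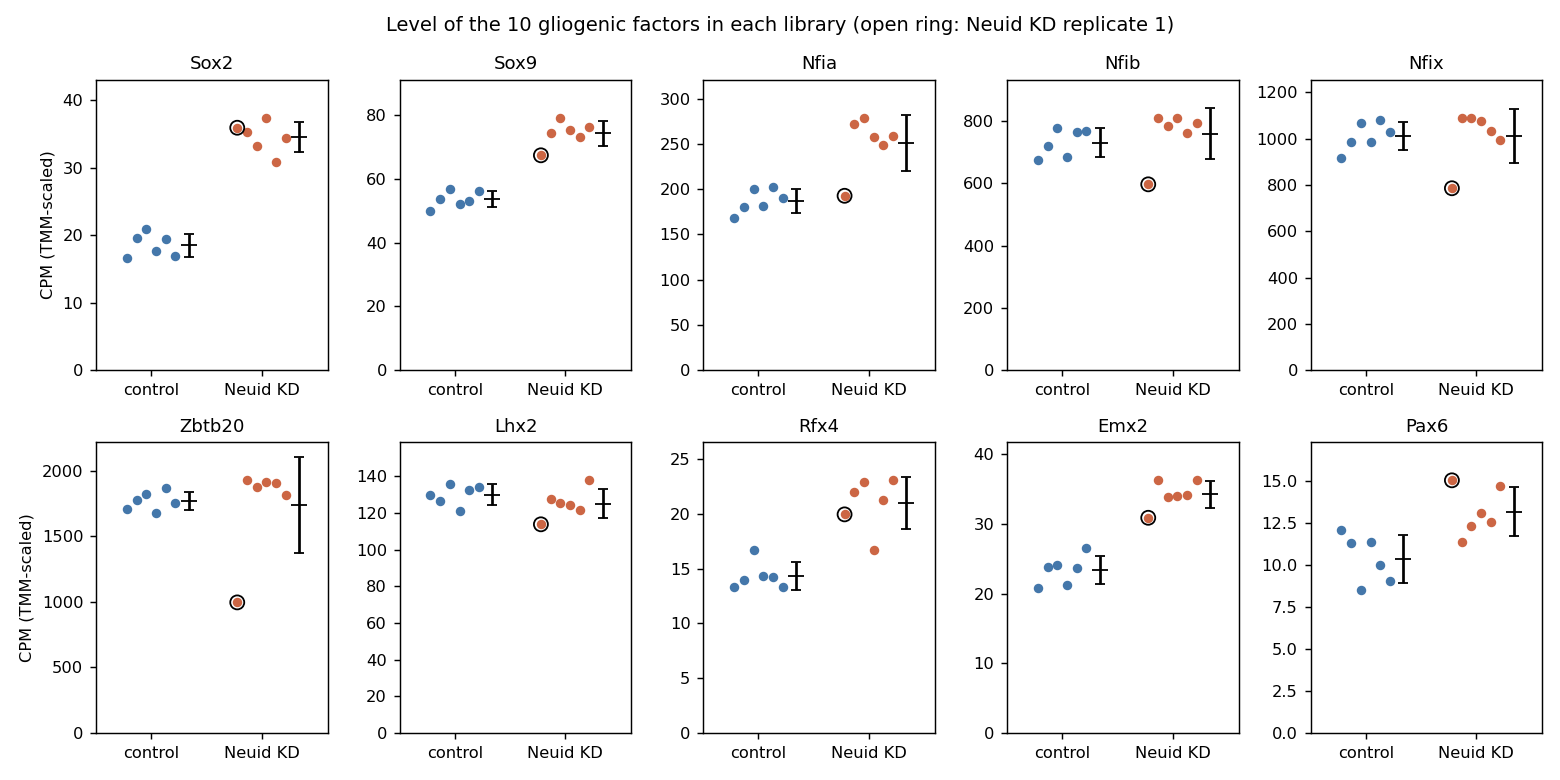
Level of each factor in every library, in CPM after TMM scaling, with each axis starting at 0; points are libraries, the horizontal mark is the mean and the bar 1 SD (n = 6). Sox2 runs from 16.7 to 20.9 CPM in control libraries and from 30.9 to 37.5 CPM after *Neuid* KD, while the ringed *Neuid* KD replicate 1 lies far below the other 5 for Nfia, Nfib, Nfix and Zbtb20.

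Whether a change in a bulk culture reflects more cells of a type or more RNA per cell cannot be told apart. Markers of astrocytes moved with the factors: all 14 tested genes of a list of 15 rose, with a median log2 fold change of 1.28, and their summed level went from 1926 to 2428 CPM in control to 3667 to 4359 CPM in *Neuid* KD libraries. Neuron markers had a median of 0.02, with only Camk2a of 12 rising (0.38), and they summed to between 6888 and 8201 CPM in *Neuid* KD. Among OPC (oligodendrocyte precursor) markers 3 of 8 rose, namely Olig1 (1.47), Olig2 (1.67) and Lhfpl3 (0.54, adjusted p = 0.0499 from edgeR, not called by DESeq2), while the defining receptor gene Pdgfra was at 6.69 ± 1.33 and 9.17 ± 3.27 CPM and did not pass. Of 4 tested oligodendrocyte markers 0 rose and 1 fell, with edgeR as with DESeq2. The gene that fell was Mbp, from 8.11 ± 1.12 to 5.14 ± 0.813 CPM (log2 fold change -0.66, adjusted p = 0.000973, edgeR). The part of these markers in the changes of the 10 factors was not tested. Of the 4 tested microglia markers and the 8 tested vascular markers 0 passed in either direction with edgeR, 0 had an unadjusted p under 0.05 and 0 were called by DESeq2, and C1qa and Cldn5 were each at or under 0.161 CPM in both group means.

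Sox2 changed most of the 10. It lies on chromosome 3 from 34650405 to 34652461 (GRCm38, plus strand) and has a single annotated transcript. In control libraries its level was 16.7 CPM at the lowest, 18.5 at the median and 20.9 at the highest, and in *Neuid* KD libraries it was 30.9, 34.9 and 37.5 CPM. Every *Neuid* KD library was thus above every control library, and the means differed 1.86-fold. This was a log2 fold change of 0.89 (SE 0.0653, adjusted p = 3.75e-08, edgeR), above that of 98.8% of tested genes. Sox2 sits inside an intron of the long noncoding Sox2ot, on the same strand, and shares no exon base with it. Sox2ot was at 10.7 ± 0.812 CPM in control and 11.5 ± 1.31 in *Neuid* KD libraries (SD, n = 6), a log2 fold change of 0.11 with a 95% confidence interval of -0.06 to 0.28 (adjusted p = 0.576, edgeR).

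Sox9, on chromosome 11 from 112782224 to 112787760, rose less than Sox2. Its lowest, median and highest levels were 49.8, 53.4 and 56.7 CPM in control and 67.4, 74.8 and 79.2 CPM in *Neuid* KD libraries, again without overlap. Sox9 thus had a log2 fold change of 0.47 (SE 0.0492, adjusted p = 3.2e-06, edgeR), or 1.39-fold. Within a library, the log2 ratio of Sox9 to Sox2 was 1.53 ± 0.111 in control and 1.10 ± 0.135 in *Neuid* KD (SD, n = 6). It was thus lower by 0.43, with no overlap (exact permutation test, two-sided, p = 0.00217, the lowest that 6 against 6 allows, adjusted p = 0.00649 over the 6 ratios tested). Both transcripts shared no 50-base stretch with any other annotated gene.

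Sequence around the transcription start was taken from RefSeq (GRCm38.p6), which matched 8 of the 10 factors, all but Sox9 and Nfib. The windows of Sox2 and Emx2 are shown because these members had the largest increases and a single RefSeq start each. They run from 250 bases before the start to 50 after it. Capitals mark the searched motifs found there on either strand: the NFI half-site TTGGC, the SOX-type ACAAAG, the CCAAT box (ATTGG on the other strand) and the homeodomain core TAATTA. The last 2 were added after the windows had been seen.
Sox2, chr3:34649745-34650044, plus strand: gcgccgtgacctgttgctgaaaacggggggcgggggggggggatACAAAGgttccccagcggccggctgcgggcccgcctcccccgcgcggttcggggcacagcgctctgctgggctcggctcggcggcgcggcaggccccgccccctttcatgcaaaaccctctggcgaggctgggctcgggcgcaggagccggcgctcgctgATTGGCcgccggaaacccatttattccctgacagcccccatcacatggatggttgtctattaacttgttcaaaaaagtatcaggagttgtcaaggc
Emx2, chr19:59458440-59458739, plus strand: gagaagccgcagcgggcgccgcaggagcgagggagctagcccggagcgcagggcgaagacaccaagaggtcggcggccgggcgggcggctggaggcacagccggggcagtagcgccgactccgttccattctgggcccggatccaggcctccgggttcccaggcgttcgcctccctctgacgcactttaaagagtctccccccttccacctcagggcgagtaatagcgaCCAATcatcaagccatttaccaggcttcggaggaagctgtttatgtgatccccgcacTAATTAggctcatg

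Both windows were rich in CpG, with 27 CpG dinucleotides for Sox2 and 26 for Emx2, where the median over 32851 windows was 7. Sox2 held 1 ACAAAG and 1 run in which TTGGC and ATTGG overlap, and Emx2 held 1 CCAAT and 1 TAATTA. These motifs are common: TTGGC was in 46.7% of all windows, ATTGG in 37.4%, ACAAAG in 18.7% and TAATTA in 5.29%. Of the 14 windows of the 8 matched factors, 6 held TTGGC, 9 held ATTGG, 4 held ACAAAG, 2 held TAATTA, 3 held the SOX-type ACAATG (12.6% of all windows) and 1 held CAGCTG (16.3%), and none held the full NFI palindrome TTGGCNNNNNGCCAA (0.0365%), all searched on both strands. A match is a run of letters only. The RefSeq starts differ from those of the annotation used for the counts, which places the first base of Sox2 at 34650405 and that of Emx2 at 59458372.

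Emx2, on chromosome 19 from 59458372 to 59465357, was the patterning factor that rose most. Its lowest, median and highest levels were 20.9, 23.8 and 26.5 CPM in control and 30.9, 34.1 and 36.3 CPM in *Neuid* KD libraries, without overlap. The log2 fold change was 0.55 (SE 0.0613, adjusted p = 6.81e-06, edgeR). Its antisense RNA Emx2os shares 264 exon bases with it on the opposite strand, and the strand setting of the counting is not given in the sources used here. Emx2os was at 4.34 ± 0.548 and 5.60 ± 0.979 CPM (SD, n = 6) with a log2 fold change of 0.38 that did not pass (adjusted p = 0.0997, edgeR).

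Pax6, on chromosome 2 from 105668900 to 105697364, is the least certain of the 6 increases. It was at 8.54, 10.7 and 12.1 CPM (lowest, median, highest) in control and at 11.4, 12.9 and 15.1 CPM in *Neuid* KD libraries, so the groups overlapped. The log2 fold change was 0.34 (SE 0.0944, adjusted p = 0.0303, edgeR), and 12 of the 24 alternative fits no longer called it. Among these were the fits without control replicate 3, 5 or 6 or *Neuid* KD replicate 1, 4, 5 or 6, with values of 0.27 to 0.34 (adjusted p = 0.0531 to 0.146, edgeR). Lhx2, on the same chromosome from 38339281 to 38369733, gave 121, 131 and 136 CPM in control and 114, 125 and 138 CPM in *Neuid* KD libraries. The ranges lay on top of each other, and the log2 fold change was -0.06 with a 95% confidence interval of -0.16 to 0.05 (adjusted p = 0.682, edgeR). The log2 ratio of Lhx2 to Pax6 was 3.64 ± 0.250 in control and 3.24 ± 0.187 in *Neuid* KD (SD, n = 6; exact permutation test, p = 0.00866, adjusted p = 0.0173), and it missed the threshold without *Neuid* KD replicate 1 (adjusted p = 0.0519, exact permutation test). That of Emx2 to Pax6 was 1.17 ± 0.311 and 1.37 ± 0.209, a difference that did not pass (exact permutation test, p = 0.212, adjusted p = 0.212).

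Rfx4, on chromosome 10 from 84756062 to 84906538, rose about as much as Emx2, with a wider spread. It was at 13.3, 14.1 and 16.7 CPM (lowest, median, highest) in control and 16.8, 21.6 and 23.1 CPM in *Neuid* KD libraries. The groups were separated by only 0.0048 CPM, less than 1 read, between *Neuid* KD replicate 4 as the lowest of its group and control replicate 3 as the highest of its own. The log2 fold change was 0.55 (SE 0.0812, adjusted p = 0.000169, edgeR). It was 0.66 in the 7 libraries with at least 100 CPM on receptor genes and 0.37 in the 5 below (adjusted p = 7.34e-06 and 0.0498, edgeR). This difference itself was not tested.

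The NFI genes did not move alike. Nfia was upregulated, while Nfix and Nfib, which were several times more abundant per kilobase, were not. Nfia (chromosome 4, 97772734 to 98118874) was at 168, 186 and 202 CPM in control and at 193, 258 and 279 CPM in *Neuid* KD libraries (lowest, median, highest). Its groups overlapped only through *Neuid* KD replicate 1, the 5 others lying at 248 CPM or above. The log2 fold change was 0.43 (SE 0.077, adjusted p = 0.0012, edgeR), and 0.45 without that replicate (adjusted p = 8.8e-06, edgeR).

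Nfib (chromosome 4, 82290173 to 82705750) was at 673, 741 and 776 CPM in control libraries. In *Neuid* KD it was at 596 CPM in replicate 1 and between 763 and 810 CPM in the others. Its log2 fold change was 0.06, with a 95% confidence interval of -0.09 to 0.20 (adjusted p = 0.786, edgeR). Nfix (chromosome 8, 84699876 to 84800344) was at 918, 1007 and 1080 CPM in control libraries, at 786 CPM in *Neuid* KD replicate 1 and between 992 and 1091 CPM in the other 5. Its log2 fold change was 0.002, with an interval of -0.15 to 0.15 (adjusted p = 0.993, edgeR). Without *Neuid* KD replicate 1 the log2 fold change was 0.08 for Nfib and 0.03 for Nfix (adjusted p = 0.277 and 0.758, edgeR). Neither gene passed in any of 24 alternative fits. The value changed sign in 1 of them for Nfib, with upper-quartile scaling, and in 19 for Nfix.

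**Figure D2:**
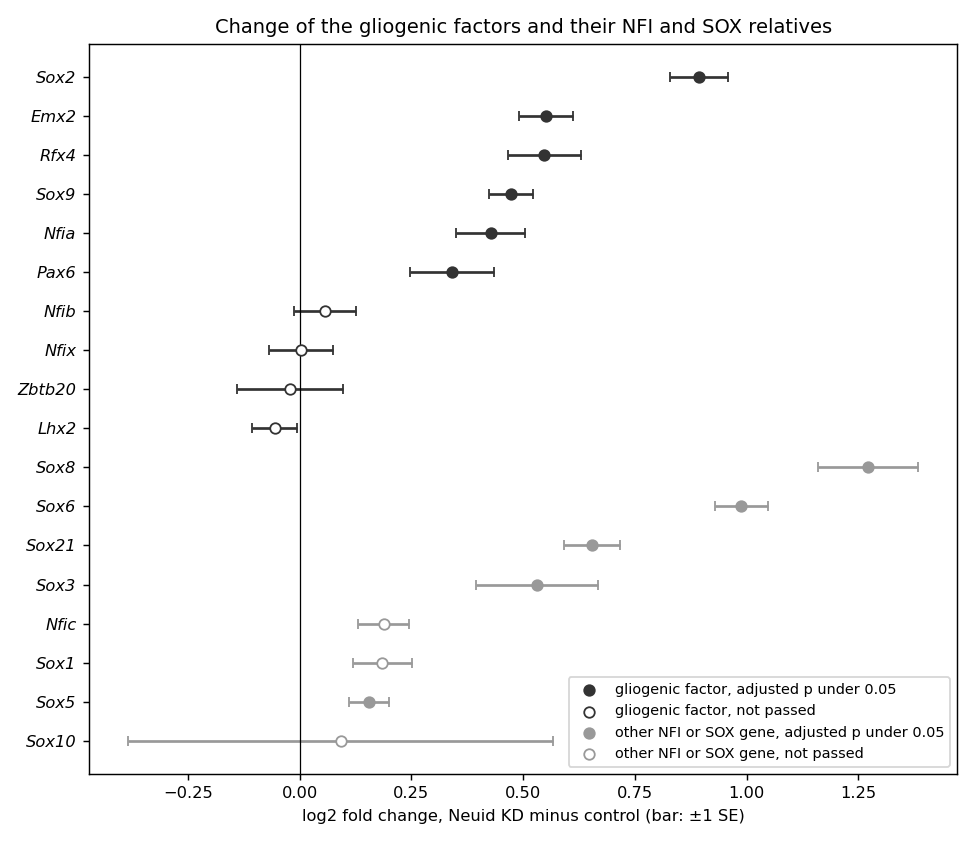
Log2 fold change of each factor and of its NFI and SOX relatives, *Neuid* KD minus control, with 1 SE; filled points passed the adjusted p of 0.05. Nfia stands at 0.43 while Nfib, at 0.06, and Nfix, at 0.002, lie on the zero line, and among the SOX genes the values run from 0.09 for Sox10 to 1.27 for Sox8.

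Nfic, the remaining gene of the family, was not among the 10 factors. It was at 41.0 ± 2.72 CPM in control and 46.6 ± 3.32 in *Neuid* KD libraries (SD, n = 6), a log2 fold change of 0.19 that narrowly missed the threshold (adjusted p = 0.0505, edgeR). Nfic also missed it in 20 of 24 alternative fits and was called higher in the others. Ratios within a library remove any scaling common to the paralogs. The log2 ratio of Nfia to Nfib was -1.97 ± 0.0451 in control and -1.60 ± 0.0584 in *Neuid* KD (SD, n = 6), higher by 0.37 and without overlap (two-sided exact permutation test, p = 0.00217, adjusted p = 0.00649). *Neuid* KD replicate 1, low for all 3 member genes, fell within the other *Neuid* KD libraries for this ratio. That of Nfix to Nfib was 0.47 ± 0.0371 and 0.41 ± 0.0512 (exact permutation test, p = 0.0519, adjusted p = 0.0623), and that of Nfic to Nfib -4.15 ± 0.0611 and -4.02 ± 0.124 (exact permutation test, p = 0.0238, adjusted p = 0.0357). The last of these missed the threshold in 8 of the 12 repeats with a library left out, without control replicate 1, 2, 3, 4 or 6 or *Neuid* KD replicate 1, 2 or 6 (differences of 0.09 to 0.14, adjusted p = 0.0552 to 0.0942, exact permutation test).

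Of the NFI reads per kilobase, Nfia made up 8.19% ± 0.112 in control and 10.5% ± 0.321 in *Neuid* KD libraries (SD, n = 6), and every *Neuid* KD library, at 10.2% or more, exceeded the highest control library at 8.31%. Nfix held 65.6% ± 0.385 and 63.0% ± 0.787, Nfib 23.3% ± 0.464 and 23.2% ± 0.562, and Nfic 2.95% ± 0.103 and 3.24% ± 0.318. These shares restate the ratios and were not tested again. The 4 genes shared no 50-base stretch with one another, so reads of this length could not have been exchanged among them without a mismatch.

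**Figure D3:**
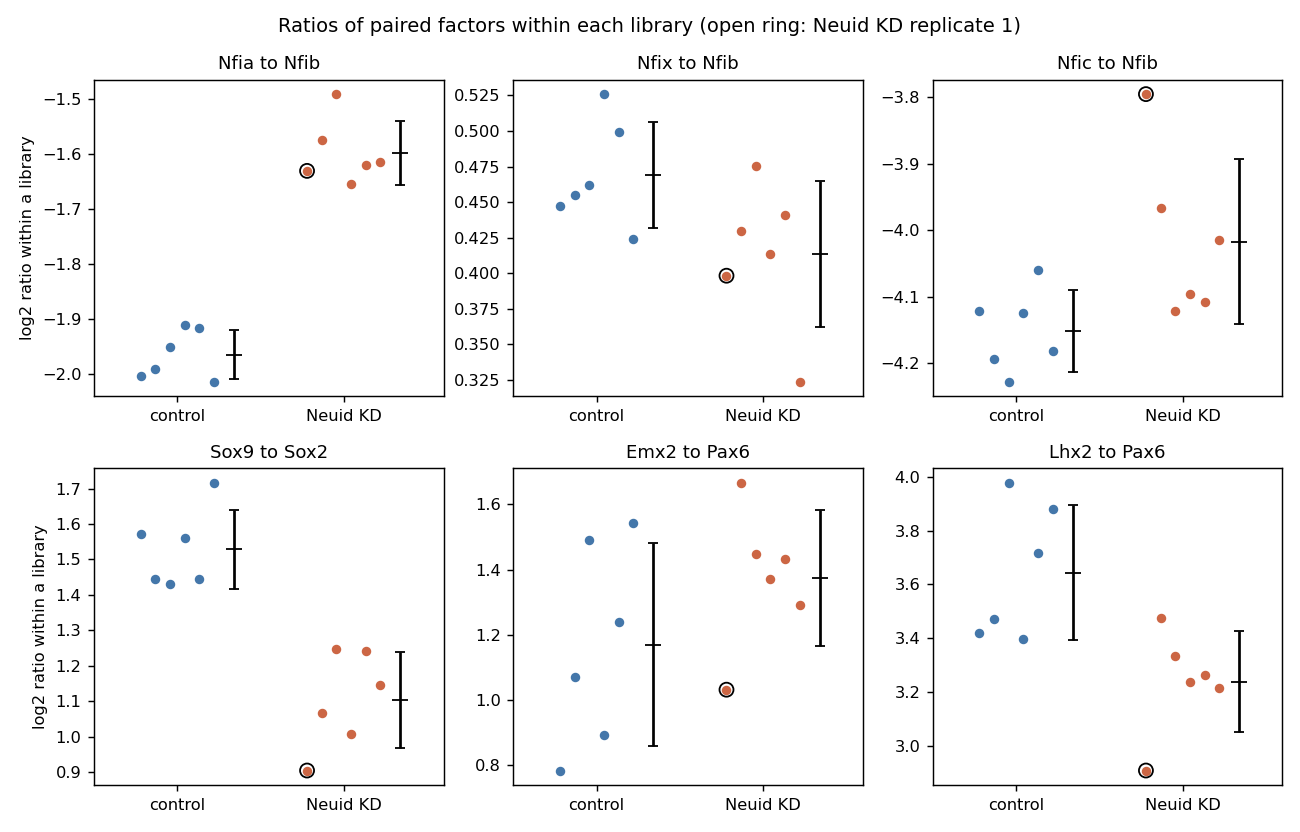
Log2 ratio of 2 factors within each library, computed from log2 CPM with a prior count of 2; points are libraries, the mark is the mean and the bar 1 SD (n = 6), and the vertical scale differs between panels and does not start at 0. Nfia to Nfib is -1.65 or higher in every *Neuid* KD library and -1.91 or lower in every control library, and Sox9 to Sox2 is 1.25 or lower against 1.43 or higher.

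Zbtb20 (chromosome 16, 42875881 to 43642602) had the highest read count of the 10. It was at 1681, 1765 and 1866 CPM (lowest, median, highest) in control libraries. In *Neuid* KD, replicate 1 was at 996 CPM and the other 5 between 1815 and 1927 CPM, so 1 library lay far below and 5 at the upper end of the control range or just above it. The log2 fold change was -0.02, with a 95% confidence interval of -0.27 to 0.23 (adjusted p = 0.955, edgeR). Without replicate 1 it was 0.06 (adjusted p = 0.35, edgeR). Replicate 1 also had the fewest reads and 617 CPM on receptor genes. Control replicate 1, with 667 CPM on those genes, held 1708 CPM of Zbtb20. The part of depth or background in this value was not tested.

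The low values in *Neuid* KD replicate 1 covered some of the factors. Relative to the median of the other 5 *Neuid* KD libraries, it held 52.2% of the Zbtb20 level, 72.9% of Nfix, 74.4% of Nfia and 75.2% of Nfib. Sox9, at 89.3%, Emx2, at 90.5%, Rfx4, at 90.7%, and Lhx2, at 90.8%, were closer. Sox2, at 105%, and Pax6, at 120%, were not low. Without this library 5 of the 10 factors were called higher, Pax6 being the one lost (0.27, adjusted p = 0.112, edgeR), and none was called lower. Of all tested genes, 6.11% were then called higher.

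Genes around the factors on the chromosome were read for comparison. E130114P18Rik starts on the opposite strand at the beginning of Nfia, sharing 4 exon bases with it. It was at 4.26 ± 0.614 CPM in control and 6.78 ± 1.40 in *Neuid* KD libraries (SD, n = 6), without overlap, a log2 fold change of 0.66 (SE 0.14, adjusted p = 0.0047, edgeR). For Gm11266, antisense to Nfib, the value was 0.18 (adjusted p = 0.318, edgeR). Lyl1 (0.17), which overlaps Nfix, did not pass. Gm15712 (0.50), Gm19522 (0.29) and Gm15711 (-0.08), which overlap Zbtb20, did not pass either (adjusted p = 0.44 to 0.942, edgeR). Pax6os1, antisense to Pax6, stayed at or under 1.09 CPM in all 12 libraries and was not tested.

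Among 19 relatives of the factors (other NFI, SOX, EMX, LHX, RFX, ZBTB and PAX genes), 18 were tested, 5 rose and 0 fell with edgeR as with DESeq2, although 4 were lower at an unadjusted p under 0.05, and the median log2 fold change was 0.06. All 5 were SOX genes. Sox8, a SOXE gene like Sox9, went from 11.7 ± 1.19 to 28.2 ± 5.63 CPM (log2 fold change 1.27, adjusted p = 4.1e-07, edgeR). Sox6 rose by 0.99, Sox21 by 0.65, Sox3, a SOXB1 gene like Sox2, by 0.53 and Sox5 by 0.16. The call of Sox5 was lost in 11 of 12 repeats with 1 library left out, and that of Sox3 without *Neuid* KD replicate 2, 4 or 6 (0.46 to 0.50, adjusted p = 0.0683 to 0.0803, edgeR). Sox1, the third SOXB1 gene, had a value of 0.18 and Sox10, the oligodendroglial SOXE gene, of 0.09 at about 1 CPM, and neither passed. The lowest values, for Pax7 (-0.31, under 1 CPM), Lhx9 (-0.21) and Rfx1 (-0.20), did not pass either. No tested relative of RFX4, EMX2, LHX2, ZBTB20 or PAX6 was among those that passed. Of 24 alternative fits, however, Lhx9 missed the threshold in 15 and Rfx1 in 22, and each was called lower in the others.

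Of 20 other transcription factors of radial glia and astrocytes, 13 rose and 1 fell, with a median of 0.39. Npas3, a bHLH-PAS factor of astrocytes and progenitors, went from 11.5 ± 1.48 to 55.0 ± 4.15 CPM (SD, n = 6), a log2 fold change of 2.26 (adjusted p = 2.92e-12, edgeR). Tcf7l1 rose by 1.24 and Dbx2 by 1.23. Hopx, a marker of outer radial glia and dentate progenitors, fell by 0.19 on the log2 scale, from 32.2 ± 1.07 to 28.3 ± 1.31 CPM (adjusted p = 0.0134, edgeR). This call was lost without control replicate 3 or 5 or *Neuid* KD replicate 3 or 4 (adjusted p = 0.0543 to 0.0682, edgeR). Zfhx4 (-0.31) and Dmrt3 (-0.25) were below it in value but did not pass. Zfhx4 missed the threshold in 19 of 24 alternative fits and was called lower in the others. In the 7 libraries with at least 100 CPM on receptor genes 8 of the 20 rose, where 2.75% of all tested genes were called higher in place of 6.31%.

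Of 16 neurogenic and neuronal transcription factors, 2 rose, 2 fell and 12 did not pass, with a median of 0.09. Over all tested genes, 6.31% were called higher and 2.42% lower, so counts this small say little about the list. Sox4 rose by 0.29 (adjusted p = 0.00049, edgeR), from 136 ± 6.23 to 166 ± 7.47 CPM (SD, n = 6). The 2 that fell were Bcl11b (-0.29, adjusted p = 0.0224, edgeR), which marks CA1 and dentate neurons, and Mef2c (-0.24). Bcl11b did not pass without control replicate 2, 5 or 6 or *Neuid* KD replicate 2 (adjusted p = 0.053 to 0.0626, edgeR). Eomes, of intermediate progenitors, had a value of 0.19 at about 2 CPM and Bcl11a one of -0.08.

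Of 8 genes regarded as targets of SOX9, NFIA or their relatives in astrocytes 7 rose, and the median log2 fold change was 1.28, beside 0.38 for the 10 factors. Aqp4, the water channel of endfeet, went from 32.6 ± 4.28 to 140 ± 15.2 CPM (SD, n = 6; log2 fold change 2.10), and Fabp7, the fatty acid binding protein of radial glia, rose by 1.50 and Zcchc24 by 1.39. Mmd2 rose by 0.54 and Gfap by 0.59. Apcdd1, at 26.9 ± 3.23 and 29.4 ± 1.51 CPM, had a value of 0.13 and did not pass (adjusted p = 0.374, edgeR). Gfap, Slc1a3, Aldh1l1 and Aqp4 also stand in the list of astrocyte markers.

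**Figure D4:**
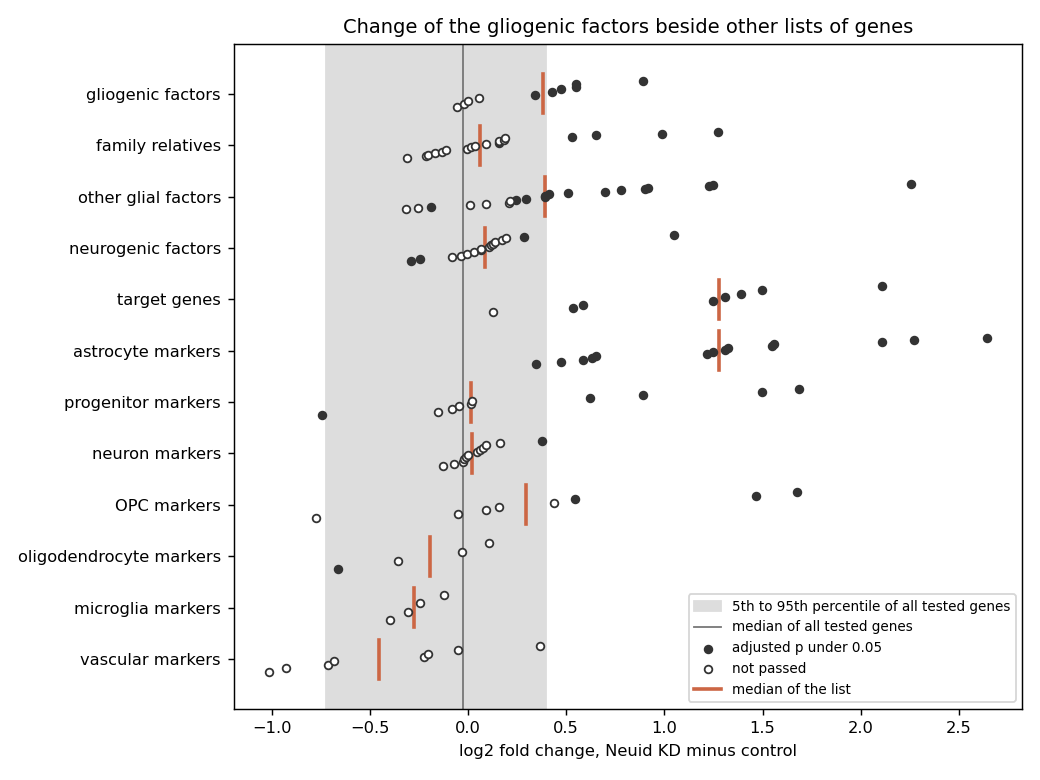
Log2 fold change, *Neuid* KD minus control, of the 10 factors and of other lists; each point is a tested gene, filled where its adjusted p was under 0.05, and the coloured line is the median of its list. The factors have a median of 0.38, target genes and astrocyte markers one of 1.28, and the grey band, from the 5th to the 95th percentile of all tested genes, runs from -0.72 to 0.39 (log2).

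Among 10 progenitor markers 4 rose, 1 fell and 5 did not pass, with a median of 0.02. Hes5, Fabp7, Prom1 and Nes rose, by 1.69, 1.50, 0.89 and 0.62, and Vim fell by 0.74 on the log2 scale. The proliferation genes Mki67, Top2a, Cdk1, Ccnb1 and Tacc3 had values between -0.15 and 0.02 and none passed, their summed level being 139 to 152 CPM in control and 129 to 153 CPM in *Neuid* KD libraries.

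The 5 genes most like the factors across the 12 libraries were chosen by Pearson correlation with the mean of the factors' standardized log2 CPM, among 8917 others with a mean of at least 10 CPM. They were Eif4g3 (r = 0.989), Fmn2 (0.986), Farp1 (0.983), Fat1 (0.982) and Myo9a (0.978). These are descriptions over libraries that share the group difference and *Neuid* KD replicate 1. Their log2 fold changes were between 0.25 for Eif4g3 and 0.40 for Fmn2.

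Adjusting for the GC content and length of the genes removed most calls. With offsets for both, Sox2 alone of the 10 was called (0.97, adjusted p = 0.0202, edgeR), while the values of Sox9 (0.54), Nfia (0.41), Rfx4 (0.59), Emx2 (0.62) and Pax6 (0.35) moved by at most 0.08 from those above. The spread within groups moved as well: the SD of the log2 level of Sox9 went from 0.0737 to 0.393 and that of Nfia from 0.154 to 0.24, while that of Pax6 narrowed from 0.179 to 0.121. The median SD over all tested genes went from 0.201 to 0.359, with 398 genes called higher in place of 1235.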

How the data were processed

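RNA-seq libraries were made from total RNA with a stranded pico-input total RNA kit and read as single reads of 50 bases. The authors aligned the reads with STAR to mm10, which is GRCm38, counted them per gene with featureCounts and deposited the raw counts, without normalization; whether the counting used the strand is not given in the sources used here. Of 55471 gene identifiers, 55230 were matched to GENCODE M21.

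From these counts, edgeR 4.0.16 (R 4.3.3) was run with its filter on low counts, TMM scaling and a quasi-likelihood fit on group alone over all 12 libraries, with Benjamini-Hochberg adjustment over all 19578 tested genes. Log2 ratios within a library used a prior count of 2 and a two-sided exact permutation test. Each library's total, 11152556 to 30914714 reads, sets its precision. The script was tested on simulated data. The members and lists were chosen with earlier results of these data known. Named were all 10 factors, their NFI and SOX relatives, and the 3 highest and 3 lowest tested genes of each related list. The tested genes that overlap a factor and the 5 genes most like the factors were named as well. Any other marker gene named was chosen after its values were seen. A gene that this rule would name is not reported here. Alternatives were RLE and upper-quartile scaling, DESeq2 1.42.0, no filter or 1 CPM in 6 libraries, 1 factor of unwanted variation estimated from replicates after the RUVs method, the receptor-gene background as a covariate or a split at 100 CPM, GC and length offsets, thinning to the smallest library, each library left out, a replicate block, a fold threshold of 0.3 and a prior count of 0.5.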

Additional observations from a re-analysis of the deposited data

Results flagged for a closer look

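In each group of 6 libraries, the gap of the highest or lowest library to its neighbour was compared with the whole range, for the 10 factors and the 6 ratios, 32 groups in all. The critical value was 0.625, and chance marks about 1 in 20 groups. Of the 5 that passed, 4 were low values of *Neuid* KD replicate 1: 996 CPM for Zbtb20, 786 CPM for Nfix, 596 CPM for Nfib and 193 CPM for Nfia. The same library was the low outlier of its group in 4.88% of all tested genes and the high outlier in 3.29%, while each of the other 5 *Neuid* KD libraries was so in at most 0.593% in either direction. It had the fewest reads (11152556) and 617 CPM on receptor genes, and the part of either was not tested. The fifth was Rfx4 in control replicate 3, at 16.7 CPM, where the other 5 control libraries were lower.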

How the results depend on the processing

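The 0 factors called lower and the number of target genes called higher (7) did not change beyond 1.5 times under any alternative. The 6 factors called higher were 5 or 6 under the alternatives except GC and length offsets, with 1. The 3 above a log2 fold change of 0.5 were 1 with upper-quartile scaling, 1 with the offsets and 6 at a threshold of 0.3, and 2 to 3 with a library left out. Relatives called higher (5) were 3 with no filter, in either background split and with the offsets, and 3 to 6 with a library left out. Other glial factors (13) were 8 in the libraries of at least 100 CPM and with the offsets, and 9 to 14 with a library left out. Neurogenic factors (2) were 1 with no filter, in the libraries of at least 100 CPM and with the offsets, and 4 with RUVs or the background covariate. The share of all tested genes called higher also moved, from 6.31% to 1.47% with no filter and 9.91% at 1 CPM in 6 libraries. It was 2.03% with the offsets, 5.36% with upper-quartile scaling, 8.88% with RUVs and 9.07% with the background covariate. In the libraries of at least 100 CPM it was 2.75%, in those below 6.28%, and with a library left out 3.93% to 6.11%. Values near 0 changed sign without passing the test. Nfib was -0.004 with upper-quartile scaling. Nfix was -0.016 with RLE, -0.059 with upper-quartile scaling, -0.009 with DESeq2, -0.013 at 1 CPM in 6 libraries, -0.028 with RUVs, -0.019 with the covariate, -0.051 and -0.014 in the background splits, -0.030 after thinning and -0.037 to 0.026 with a library left out. Zbtb20 was 0.019 in the libraries under 100 CPM and -0.084 to 0.056 with a library left out. Pax7 was 0.031 with RUVs, 0.117 in the libraries of at least 100 CPM and -1.01 to 0.155 with a library left out, where Sox10 was -0.090 to 0.50 and Eomes -0.032 to 0.317. With a library left out, 2 to 5 ratios differed (4 with all libraries, 2 without *Neuid* KD replicate 1), and the differences were 0.346 to 0.379 for Nfia to Nfib, -0.068 to -0.037 for Nfix to Nfib (past the threshold without control replicate 6 or *Neuid* KD replicate 3), 0.090 to 0.155 for Nfic to Nfib, -0.455 to -0.387 for Sox9 to Sox2, 0.126 to 0.278 for Emx2 to Pax6 and -0.454 to -0.338 for Lhx2 to Pax6. The smallest p is larger with fewer libraries. Libraries with the same replicate number correlated at -0.637 to 0.774 in their deviations from the group means. Not every library correlated best with its own number, while replicates 1 and 3 did (0.774 and 0.751). Whether the numbers pair the libraries cannot be told from these correlations. With a replicate block 1299 genes were higher in place of 1235, 6 factors were called higher, and Nfix was -0.005. The cause of these changes was not tested. At about 1 CPM or below, as for Sox10 and Pax7, depth limits what can be seen.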
